A study of Rattus norvegicus with 18 samples.

Results

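Kidney medulla cells live in a salty surround and hold their volume by filling up with small, harmless solutes, the organic osmolytes. In cells of the rat inner medullary collecting duct (IMCD), the last stretch of the tubule, 7 genes of this system were followed: Akr1b1, Sord, Slc5a3, Slc6a6, Slc38a2, Gdpd5 and the transcription factor gene Nfat5. They were chosen by name, as the genes whose single symbol in the platform's probe gene table is one of these 7. The choice was made with earlier results of these data known. All 7 were measured, on 8 of the array's 28328 features, since Akr1b1 has a pair of features. Features with 1 symbol stand for 14499 genes in all.

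As background, aldose reductase (Akr1b1) turns glucose into the osmolyte sorbitol and sorbitol dehydrogenase (Sord) oxidises sorbitol to fructose. SLC5A3 carries myo-inositol with sodium, SLC6A6 carries taurine with sodium and chloride, and SLC38A2 carries small neutral amino acids with sodium. GDPD5 breaks down glycerophosphocholine, a methylamine that accumulates in hypertonic medulla. NFAT5, also called TonEBP, is the transcription factor that binds tonicity-responsive enhancers, and osmolyte genes are its best known targets.

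Total RNA of primary IMCD cultures was read on 18 whole-transcript arrays, 3 for each of 6 groups. A pair of groups was kept at a constant osmolality, 300 mosmol/kg (300 culture) or 600 mosmol/kg (600 culture). In the 600 challenge, cells grown at 300 mosmol/kg spent 24 h at 600 mosmol/kg, either alone or with 5 µM cyclosporin A, which blocks the phosphatase calcineurin. In the 900 challenge, cells grown at 600 mosmol/kg spent 24 h at 900 mosmol/kg, again alone or with cyclosporin A. Strain, age and genotype of the rats are not given in the labels. The labels name no group that was handled like a challenge at unchanged osmolality, so the step in osmolality and the handling cannot be told apart. They also do not say that replicate arrays stem from different rats or different culture dishes. The p-values therefore measure only how far these arrays spread, and that spread may be technical.

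Values are logarithms of unstated base, so the fold change behind a difference depends on the base, and where folds are given they stand for base 2 and for the natural logarithm. Array medians ran from 3.56 to 3.65, the lower quartiles from 2.48 to 2.70, and the SD within a group had a median over features of 0.11 to 0.12. The epithelial markers Epcam (means of 7.94 to 8.14 over the 6 groups), Krt8 (7.38 to 8.13) and Cdh1 (6.80 to 7.33) were bright in every group. The water channel gene Aqp2, which defines the principal cell of the collecting duct, had means of 1.61 in the 300 culture, 2.28 in the 600 challenge and 1.86 in that challenge with cyclosporin A, all under the lower quartile. Its mean was 6.50 in the 600 culture, 7.94 in the 900 challenge alone and 7.70 with the drug. Markers of other cells moved with the groups as well.

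**Figure D1:**
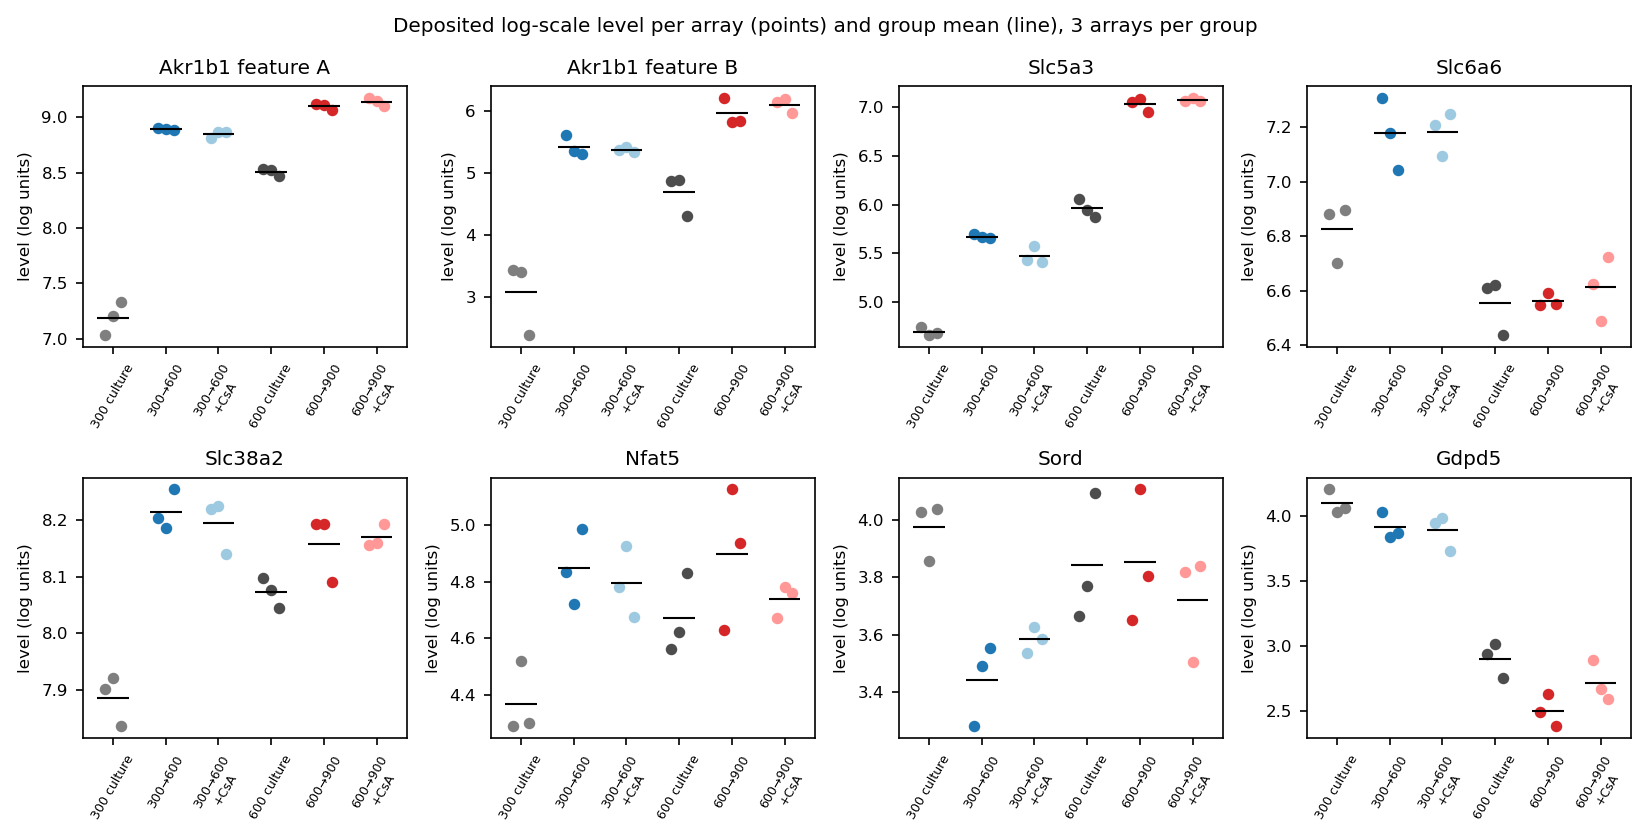
Level of each osmolyte feature in log units on every array (points) by group (horizontal axis), with the mean of the 3 arrays as a line. On the axes 300→600 and 600→900 stand for the 600 and 900 challenges and CsA for cyclosporin A, and vertical axes differ between panels. Akr1b1 and Slc5a3 were lowest in the 300 culture and highest in the 900 challenge groups, Gdpd5 ran the other way, and Slc6a6 was highest in the 600 challenge groups.

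Akr1b1 had the largest rise of the set in the 600 challenge. Its first feature (10861736, here feature A) stood at 7.04, 7.20 and 7.33 on the 3 arrays of the 300 culture and at 8.90, 8.90 and 8.88 in the 600 challenge. It stood at 8.53, 8.52 and 8.47 in the 600 culture and at 9.12, 9.11 and 9.06 in the 900 challenge. All 3 arrays of the 300 culture thus lay below every other array, and the 4 groups did not overlap. Its second feature (10864893, feature B) read 3.43, 3.39 and 2.38 in the 300 culture, against 5.61, 5.35 and 5.30 in the 600 challenge, 4.87, 4.89 and 4.30 in the 600 culture, and 6.21, 5.82 and 5.84 in the 900 challenge. Its order of group means was the same, with a wider spread between arrays (pooled SD 0.31 against 0.07 for feature A). RefSeq (GRCr8) lists 5 Akr1b1 pseudogenes, and whether probes of either feature also match one of them was not tested.

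In the 600 challenge Akr1b1 rose over the 300 culture by 1.70 ± 0.06 log units (SE, limma, adjusted p = 5.58e-10) on feature A and by 2.35 ± 0.23 on feature B (adjusted p = 6.85e-06). These are rank 15 and rank 5 by size of rise among all 28328 features. For feature B 1 of the 3 arrays of the 300 culture was under its lower quartile, where signal above background is not shown, so its rise and rank start from an uncertain level. In the same comparison the mean log level of 12 leukocyte markers was between 5.49 and 5.58 on the arrays of the 300 culture and between 3.99 and 4.14 on those of the 600 challenge. That of 11 fibroblast and interstitial markers was between 6.05 and 6.11 and between 5.32 and 5.38, respectively. Their part in the differences of the osmolyte genes was not tested. On feature A the rise is 3.26-fold with base 2 and 5.49-fold with a natural logarithm. The 600 culture was also above the 300 culture, by 1.32 on feature A (adjusted p = 8.71e-10) and by 1.62 on feature B (adjusted p = 0.000137). The cells challenged for 24 h stood above the cells cultured at the same 600 mosmol/kg, by 0.39 ± 0.06 on feature A (adjusted p = 0.000339) and by 0.73 ± 0.23 on feature B (adjusted p = 0.0455). The second of these did not pass when any 1 of the 6 arrays was left out (adjusted p from 0.0521 to 0.193) or when only these groups were fitted (0.059).

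The step from 600 to 900 mosmol/kg, at which the leukocyte markers stood between 4.16 and 4.28 before and between 2.95 and 3.00 after, added 0.59 ± 0.06 on feature A (adjusted p = 7.8e-06) and 1.27 ± 0.23 on feature B (adjusted p = 0.00134). The rise at the second step was smaller than at the first by 1.11 ± 0.09 log units on feature A (test of the difference of the steps, adjusted p = 4.45e-06). On feature B the steps differed by 1.08 ± 0.33 in the same direction, which did not pass (adjusted p = 0.0641) but did with dim features left out (0.0451), a variance trend (0.0211), replicate numbers as a block (0.0239), and without replicate 1 or 2 of the 300 culture or replicate 3 of the 600 culture (adjusted p from 0.0371 to 0.047). Feature A read 9.06 to 9.17 on the 6 arrays of the 900 challenge without and with cyclosporin A, while the highest value of any feature on an array was 9.36 to 9.50. The part of this upper end of the scale in the smaller second rise was not tested. The 900 challenge was above the 600 challenge by 0.20 on feature A (adjusted p = 0.0211), a call lost after quantile normalization (0.13, adjusted p = 0.112) and without replicate 2 or 3 of the 600 challenge or replicate 1 or 2 of the 900 challenge (adjusted p from 0.0516 to 0.0635). On feature B this difference was 0.54 (adjusted p = 0.115), and it passed with replicate numbers as a block (0.0422) or in a fit of these groups only (0.0433).

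Sord, whose enzyme removes sorbitol, moved less. It read 4.03, 3.86 and 4.04 in the 300 culture and 3.28, 3.49 and 3.55 in the 600 challenge, a fall of 0.53 ± 0.13 (adjusted p = 0.0131) with no overlap between the groups. The fall did not pass without replicate 1 or 3 of the 300 culture or replicate 1 of the 600 challenge (-0.50, -0.50 and -0.45, adjusted p from 0.0502 to 0.065). The 600 culture (3.67, 3.77 and 4.09) and the 900 challenge (3.65, 4.11 and 3.81) overlapped each other and the 300 culture, and differed from each other by 0.01 (95% interval -0.27 to 0.29). The 600 challenge lay below the 600 culture without overlap (-0.40 ± 0.13), which did not pass (adjusted p = 0.05325). It passed without dim features (0.0379), with a variance trend (0.03955) and without replicate 1 of the 600 culture (-0.49, adjusted p = 0.0376). Sord was higher in the 900 challenge than in the 600 challenge by 0.41 (adjusted p = 0.0316), which did not pass without replicate 1 or 2 of the 600 challenge or replicate 2 or 3 of the 900 challenge (adjusted p from 0.0557 to 0.153), or in a fit of these groups only (0.0917). The steps differed by 0.54 ± 0.19 for Sord without passing the test (adjusted p = 0.101), but passed without replicate 3 of the 600 culture (0.67, adjusted p = 0.0437). Of the 5 neighbouring pairs in the order of its 6 group means, none passed, while 3 did for Akr1b1 feature A and 1 for feature B.

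Slc5a3, the myo-inositol transporter gene, rose at every step. It read 4.74, 4.66 and 4.68 in the 300 culture, against 5.69, 5.67 and 5.65 in the 600 challenge, 6.06, 5.95 and 5.87 in the 600 culture and 7.06, 7.09 and 6.95 in the 900 challenge. No array of one of these groups overlapped another group. The 600 challenge was above the 300 culture by 0.98 ± 0.06 (adjusted p = 4.62e-08) and the 900 challenge above the 600 culture by 1.07 ± 0.06 (adjusted p = 2.23e-08). The test of the difference of these steps gave 0.09, with a 95% interval from -0.08 to 0.27 (adjusted p = 0.591). Unlike Akr1b1, Slc5a3 was lower after 24 h at 600 mosmol/kg than in the 600 culture, by 0.29 ± 0.06 (adjusted p = 0.00271). From the 300 culture to the 900 challenge its level differed by 2.34 ± 0.06 (adjusted p = 4.55e-13), which is 5.05-fold with base 2 and 10.4-fold with a natural logarithm.

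Slc6a6, the taurine transporter gene, was higher after 24 h at 600 mosmol/kg than in either culture. It read 6.88, 6.70 and 6.90 in the 300 culture, against 7.31, 7.18 and 7.04 in the 600 challenge, 6.61, 6.62 and 6.44 in the 600 culture and 6.55, 6.59 and 6.55 in the 900 challenge. The 600 challenge lay above all other groups without the drug, and the 600 culture and 900 challenge overlapped. The rise over the 300 culture was 0.35 ± 0.08 (adjusted p = 0.00981), and it did not pass without replicate 2 of the 300 culture (0.29, adjusted p = 0.0525), without replicate 1 of the 600 challenge (0.28, adjusted p = 0.0533) or in a fit of these groups only (adjusted p = 0.0751). Against the 600 culture the 600 challenge was higher by 0.62 ± 0.08 (adjusted p = 7.53e-05). The 600 culture itself was below the 300 culture by 0.27 (difference -0.27 ± 0.08, adjusted p = 0.036), a call lost without replicate 1 or 3 of either culture (adjusted p from 0.0528 to 0.153), after quantile normalization (0.0544) and in a fit of these groups only (0.104). The step from 600 to 900 mosmol/kg changed it by 0.01 (95% interval -0.17 to 0.19), and the difference of the steps, -0.34 ± 0.12, did not pass (adjusted p = 0.0995) but did with a variance trend (0.0298). The 900 challenge was lower than the 300 culture (-0.26, adjusted p = 0.0243), a call lost without replicate 1 or 3 of either group, with arrays centred on their medians and after quantile normalization (adjusted p from 0.0519 to 0.0912).

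Slc38a2, the system A amino acid transporter gene, showed small differences with little spread. It read 7.90, 7.92 and 7.84 in the 300 culture and 8.20, 8.19 and 8.25 in the 600 challenge, a rise of 0.33 ± 0.05 (adjusted p = 0.000164). The 600 culture (8.10, 8.08 and 8.05) was above the 300 culture by 0.19 (adjusted p = 0.00984). This did not pass without replicate 3 of the 300 culture (0.16, adjusted p = 0.0517) or in a fit of these groups only (0.0786). The 600 challenge exceeded the 600 culture by 0.14 (adjusted p = 0.0494), which was lost when any 1 of their 6 arrays was left out (adjusted p from 0.0697 to 0.163), after quantile normalization (0.0842), in a fit of these groups only (0.185) and with replicate numbers as a block (0.0603). The 900 challenge (8.19, 8.19 and 8.09) overlapped the 600 culture and differed from it by 0.09 (95% interval -0.01 to 0.18). The difference between the steps was -0.24 ± 0.06 (adjusted p = 0.0348), a call that was lost with the arrays centred on their medians (adjusted p = 0.0593), in a fit of these 4 groups only (0.077) and when any of 8 arrays was left out: each of the 3 arrays of the 600 culture, replicates 1 and 3 of the 300 culture and of the 600 challenge, and replicate 3 of the 900 challenge (values from -0.26 to -0.21, adjusted p up to 0.0886).

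The promoters of the 3 transporter genes are shown because all 3 rose in the 600 challenge. Windows of 250 bases upstream of the gene start were taken from RefSeq (GRCr8), whose promoter table held 5 of the 7 genes (Slc5a3, Slc6a6, Slc38a2, Sord and Gdpd5). All are written 5′ to 3′ on the gene's strand, with matches to TGGAAA, the core of the tonicity-responsive enhancer, in capitals (TTTCCA where the match is on the other strand). The windows are chr11:44799537-44799786 (plus strand), chr4:125752252-125752501 (plus strand) and chr7:129742620-129742869 (minus strand).
Slc5a3: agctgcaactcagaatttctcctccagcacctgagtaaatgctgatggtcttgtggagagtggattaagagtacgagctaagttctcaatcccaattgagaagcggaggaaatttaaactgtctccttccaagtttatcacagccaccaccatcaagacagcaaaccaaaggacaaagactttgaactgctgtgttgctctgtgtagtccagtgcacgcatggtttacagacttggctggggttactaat
Slc6a6: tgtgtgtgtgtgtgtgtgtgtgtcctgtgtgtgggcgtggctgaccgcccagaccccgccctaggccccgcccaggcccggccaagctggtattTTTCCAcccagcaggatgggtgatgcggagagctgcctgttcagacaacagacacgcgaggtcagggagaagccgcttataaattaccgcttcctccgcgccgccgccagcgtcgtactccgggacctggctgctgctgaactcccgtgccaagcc
Slc38a2: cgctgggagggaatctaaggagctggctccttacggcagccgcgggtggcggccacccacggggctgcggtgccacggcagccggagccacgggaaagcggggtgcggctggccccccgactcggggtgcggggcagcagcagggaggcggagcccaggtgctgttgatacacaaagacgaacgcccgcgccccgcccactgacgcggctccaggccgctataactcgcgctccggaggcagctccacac
Among the 5 windows the core was found in Slc6a6 alone, on the minus strand from 156 to 151 bases before the start, and there the letters around it also met the full enhancer consensus. On either strand TGGAAA is in 19.7% of the 33469 windows of this length in the table, and the full consensus, which contains it, in 5.17%. A match is a description of the letters and not a site in use. Sequence outside the windows of 250 bases was not searched, so the lack of a match holds for these bases only.

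Gdpd5 was lower in the 600 culture than in the 300 culture and lower again in the 900 challenge. It read 4.20, 4.03 and 4.06 in the 300 culture, against 4.03, 3.84 and 3.87 in the 600 challenge, 2.94, 3.02 and 2.76 in the 600 culture and 2.49, 2.63 and 2.38 in the 900 challenge. Every array of the 600 culture and 900 challenge lay below every array of the 300 culture and 600 challenge. Between the 300 and 600 cultures the level fell by 1.20 ± 0.10 (adjusted p = 6.31e-07), rank 236 by size of fall among all features. Between these cultures the mean log level of 14 principal cell markers was between 4.26 and 4.34 at 300 and between 5.58 and 5.81 at 600 mosmol/kg. That of 12 leukocyte markers was 5.49 to 5.58 at 300 and 4.16 to 4.28 at 600 mosmol/kg, with 11 called lower. For 11 fibroblast and interstitial markers it was 6.05 to 6.11 and 5.74 to 5.76, with 6 called lower. The part of these cells in the fall of Gdpd5 was not tested. The 24 h challenge to the same osmolality differed from the 300 culture by -0.19 (95% interval -0.40 to 0.03, adjusted p = 0.278), so that challenged cells stood 1.01 ± 0.10 above cells cultured at 600 mosmol/kg (adjusted p = 4.39e-06). The step to 900 mosmol/kg gave a further fall of 0.40 ± 0.10 (adjusted p = 0.0124). That fall did not pass without replicate 2 of the 600 culture or replicate 3 of the 900 challenge (both -0.34, adjusted p = 0.0622 and 0.0596) or in a fit of these groups only (0.0614), and 2 of the 3 arrays of the 900 challenge were under their lower quartile, where signal above background is not shown.

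Nfat5 itself had group means that spanned 0.53 log units, where the median span over all features was 0.37. It read 4.29, 4.52 and 4.30 in the 300 culture, against 4.83, 4.72 and 4.99 in the 600 challenge, 4.56, 4.62 and 4.83 in the 600 culture and 4.63, 5.13 and 4.94 in the 900 challenge. The 300 culture lay below the other groups, which overlapped one another. In the 600 challenge Nfat5 rose by 0.48 ± 0.12 (adjusted p = 0.0131). This did not pass without replicate 1 or 3 of the 300 culture or replicate 3 of the 600 challenge (0.44, 0.45 and 0.41, adjusted p from 0.0529 to 0.0613). The 600 culture differed from the 300 culture by 0.30 (95% interval 0.05 to 0.56, adjusted p = 0.107), and the 900 challenge from the 600 culture by 0.23 (95% interval -0.03 to 0.48, adjusted p = 0.246). Without replicate 1 of the 900 challenge the last difference was 0.36 and passed (adjusted p = 0.0432). Over the longest interval, from the 300 culture to the 900 challenge, Nfat5 was higher by 0.53 ± 0.12 (adjusted p = 0.0028). None of the 5 neighbouring pairs in the order of its group means passed the test.

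**Figure D2:**
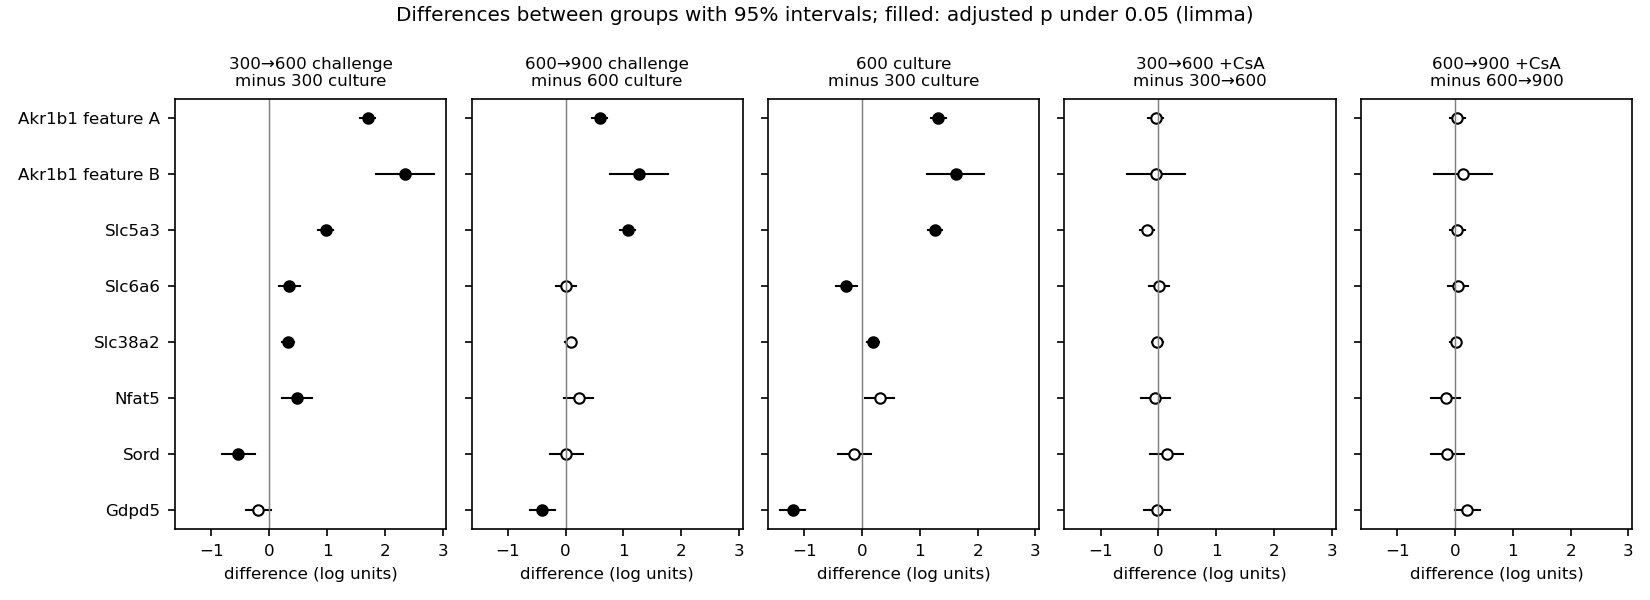
Difference between groups for each osmolyte feature (points) with its 95% interval (bars) in log units, for 5 comparisons on a common horizontal axis. Filled points passed an adjusted p of 0.05. Points for the 600 challenge lie farthest to the right for Akr1b1, and all 16 points of the cyclosporin A comparisons are open.

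Counted over the 8 features, 6 rose and 1 fell in the 600 challenge against the 300 culture, where 14.4% of all features were called, 6.36% higher and 8.07% lower. The median difference of the 8 was 0.41 and that of all features 0.02. Since the members were chosen with earlier results of these data known, these counts and medians are a description and not a test of the set. In the 900 challenge against the 600 culture 3 rose and 1 fell, with 17.4% of all features called (6.43% higher and 11% lower) and medians of 0.16 and -0.01. In the 600 culture against the 300 culture 4 features were higher and 2 lower, with 17.2% of all features called (8.33% higher and 8.84% lower). Between the 600 challenge and the 600 culture, cells at the same osmolality, 5 were higher and 1 lower in the challenge, against 16.4% of all features (7.69% higher and 8.74% lower). Between the 900 and 600 challenges 3 were higher and 2 lower (26.2% of all features called, 10.9% higher and 15.3% lower), and between the 900 challenge and the 300 culture 5 were higher and 2 lower (31.7%, 13.7% higher and 17.9% lower). The test of the difference of the steps called 2 of the 8, both with the smaller rise at the second step, against 7.58% of all features (4.06% in that direction). The steps to 600 and to 900 mosmol/kg share no array, whereas the comparisons of cultures share arrays with both. The 6 higher in the 600 challenge are the pair of Akr1b1 features and those of Slc5a3, Slc6a6, Slc38a2 and Nfat5, and the 3 higher in the 900 challenge are the Akr1b1 features and Slc5a3.

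**Figure D3:**
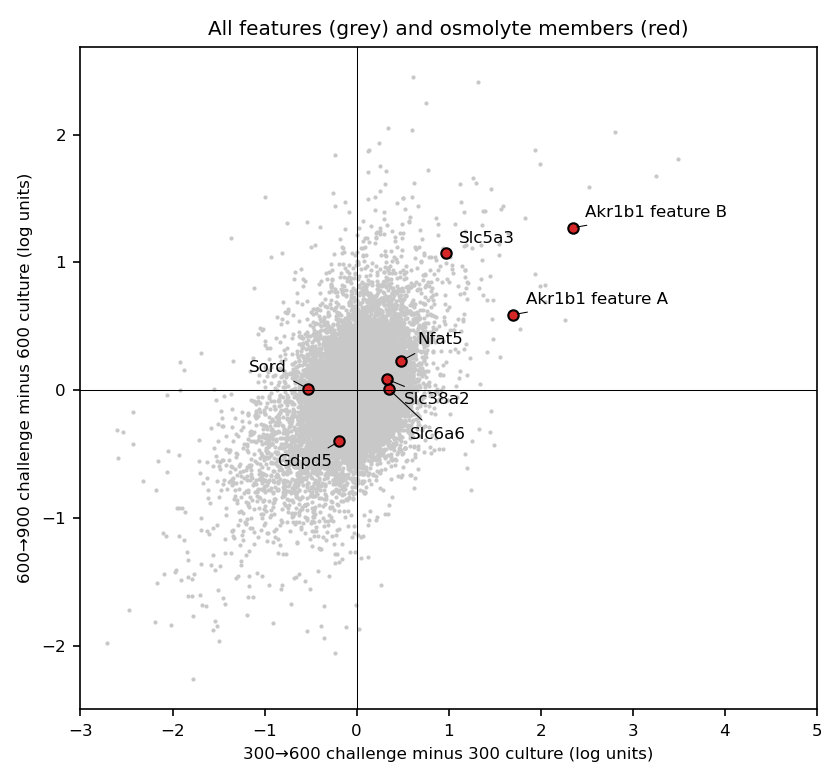
Difference of the 600 challenge from the 300 culture (horizontal) against that of the 900 challenge from the 600 culture (vertical), in log units, for all 28328 features (grey) and the 8 osmolyte features (red). Akr1b1 and Slc5a3 stand at the upper right (feature A at 1.70 and 0.59, Slc5a3 at 0.98 and 1.07), while the other genes lie nearer to the origin.

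An effect of cyclosporin A on the osmolyte genes was not detectable with 3 arrays a group. The mean log level of principal cell markers was 4.13 to 4.18 in the 600 challenge with the drug against 4.32 to 4.34 without it, that of endothelial markers 4.60 to 4.65 against 4.71 to 4.80, and that of fibroblast and interstitial markers 5.44 to 5.51 against 5.32 to 5.38. In the 900 challenge principal cell markers stood at 5.72 to 5.80 with the drug and at 5.88 to 5.91 without it. Ranges not given here overlapped with and without the drug. At 600 mosmol/kg limma called 1 of 14 principal cell and 1 of 8 endothelial markers lower with the drug (0.409% of all features called). Of 11 fibroblast and interstitial markers 1 was higher at 600, and 1 was higher and 2 lower at 900 mosmol/kg (0.505%). At 900 mosmol/kg 0 of 14 principal cell markers were called, and 1 of 8 endothelial and 1 of 12 leukocyte markers were higher. Limma called 0 of the 8 features between the 600 challenge with and without the drug (1 at an unadjusted p under 0.05), where 0.409% of all features were called, and 0 of 8 between the 900 challenge with and without it (0 at an unadjusted p under 0.05), where 0.505% were. Akr1b1 feature A read 8.81, 8.86 and 8.86 in the 600 challenge with the drug, -0.05 from the challenge without it (95% interval -0.18 to 0.08), and 9.17, 9.14 and 9.10 in the 900 challenge with it, a difference of 0.04 (-0.09 to 0.17). Slc5a3 read 5.43, 5.57 and 5.41 in the 600 challenge with the drug, all below the 3 arrays without it. That difference of -0.20 ± 0.06 had the unadjusted p under 0.05 and did not pass over all features (adjusted p = 0.227). In the 900 challenge with the drug Slc5a3 read 7.06, 7.10 and 7.06 and overlapped the group without it (difference 0.04, 95% interval -0.08 to 0.17). The test of whether the drug's effect on Slc5a3 differed between the challenges gave 0.24 ± 0.08 (adjusted p = 0.514), and this test called 0 of the 8 features (1 at an unadjusted p under 0.05) and 0.0459% of all.

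For Nfat5 the drug comparison gave -0.05 (95% interval -0.31 to 0.20) at 600 and -0.16 (-0.42 to 0.10) at 900 mosmol/kg. For Slc6a6 it gave 0.01 (-0.17 to 0.18) and 0.05 (-0.13 to 0.23), for Slc38a2 -0.02 (-0.12 to 0.08) and 0.01 (-0.09 to 0.11), and for Sord 0.14 (-0.14 to 0.42) and -0.13 (-0.42 to 0.15). Akr1b1 feature B, with the widest intervals, had -0.05 (-0.55 to 0.45) and 0.14 (-0.36 to 0.64). The largest value for the drug at 900 mosmol/kg was that of Gdpd5, which read 2.89, 2.67 and 2.59 with it, 0.21 ± 0.10 above the 900 challenge alone (adjusted p = 0.481). In that challenge alone 2 of the 3 arrays were under their lower quartile for Gdpd5, where signal above background is not shown. The comparisons with the drug use the arrays of the same cultures as those without it: against the 300 culture 6 of 8 features rose in the 600 challenge with the drug (14.1% of all features called, 6.21% higher). Against the 600 culture 3 of 8 rose in the 900 challenge with it (17.8% of all features called, 7.27% higher). Of the latter calls over all features 40.9% were higher, or 53.5% with the arrays centred on their medians. Sord in the former (-0.39, adjusted p = 0.0667) and Gdpd5 in the latter (-0.19, adjusted p = 0.268) did not pass. Sord passed there without dim features (adjusted p = 0.0481), with a variance trend (0.0499) and in a fit of these groups only (0.0276). The rise of Nfat5 in the 600 challenge with the drug, 0.43 (adjusted p = 0.0262), did not pass without replicate 1 or 3 of the 300 culture or replicate 1 or 2 of that challenge (adjusted p from 0.0651 to 0.102), or in a fit of these groups only (0.0541).

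Genes around the members were read by pathway, each by its feature with the highest mean. The counts stand against 14.4% of all features called in the 600 challenge (6.36% higher and 8.07% lower) and 17.4% in the 900 challenge (6.43% higher and 11% lower), shares that count features and not genes, and a list whose share lies near these gives no result about the list. Of 14 measured genes of the polyol pathway, 3 rose and 3 fell in the 600 challenge (median 0.10, 14.4% of all features called) and 5 rose and 1 fell in the 900 challenge (median 0.11, 17.4% of all features called). Akr1b8, a relative of aldose reductase, rose by 1.18 ± 0.11 and 0.88 ± 0.11 at these steps (adjusted p = 2.68e-06 and 3.6e-05). The glycolytic aldolase gene Aldoc fell by 1.20 and 0.67, the hexokinase gene Hk1 rose by 0.28 and 0.25, and the fructose transporter gene Slc2a5 had a fall of 0.59 at the first step, from a level already under the lower quartile. The ketohexokinase gene Khk, which takes up the fructose that SORD makes, rose by 0.71 at the second step and had a difference of 0.47 at the first (adjusted p = 0.0535).

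Of 8 myo-inositol genes, 3 rose and none fell at either step, where 6.36% and 6.43% of all features rose. They were Slc5a3, Isyna1, whose enzyme makes inositol phosphate from glucose phosphate, and Cdipt, the phosphatidylinositol synthase gene. Isyna1 rose by 0.69 ± 0.08 in the 600 challenge (adjusted p = 2.61e-05) and by 1.26 ± 0.08 in the 900 challenge (adjusted p = 7.21e-08), and Cdipt by 0.25 and 0.30. The same 3 were higher in the 600 culture than in the 300 culture, Isyna1 by 0.31. Unlike Slc5a3, Isyna1 was higher in the 600 challenge than in the 600 culture, by 0.38 (adjusted p = 0.00328).

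Of 9 measured genes of taurine, betaine and creatine handling, Slc6a6 alone rose at the first step, and 2 rose and 1 fell at the second. The single call at the first step is no more than the 14.4% of all features called there gives, and 17.4% were called at the second. Those rising were Chdh, whose enzyme oxidises choline on the way to betaine (0.41), and Cdo1, whose enzyme starts taurine synthesis from cysteine (0.66). The creatine transporter gene Slc6a8 fell by 0.56. Chdh and Cdo1 were also higher in the 600 culture than in the 300 culture, by 1.04 and 0.82. The betaine transporter gene Slc6a12 was not analysed here.

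Of 12 glycerophosphocholine and choline genes, none rose and 2 fell in the 600 challenge, and 2 rose and 4 fell in the 900 challenge. The first count is near the 14.4% of all features called, and the second stands against 17.4%. Gpcpd1, which like Gdpd5 encodes a glycerophosphodiesterase, fell at both steps, by 0.51 (adjusted p = 0.000127) and 0.29 (adjusted p = 0.00768), and differed by -0.63 between the cultures. The choline transporter gene Slc5a7 was higher in the 600 culture than in the 300 culture by 2.09 ± 0.13 (adjusted p = 2.91e-08), from a mean under the lower quartile (2.23 to 4.32), and fell by 1.12 in the 900 challenge. The choline kinase gene Chka rose by 0.42 and the choline transporter gene Slc44a1 by 0.36 at the second step.

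Of 11 genes of neutral amino acid transport, 4 rose and 4 fell in the 600 challenge (14.4% of all features called) and 4 rose and 1 fell in the 900 challenge (17.4%). Slc38a4, a system A transporter like Slc38a2, rose by 1.23 ± 0.06 in the 600 challenge (adjusted p = 4.78e-09), and its mean in the 600 culture, 5.83, was close to the 5.85 of the 300 culture (difference -0.02 ± 0.06). The amino acid exchanger genes Slc7a8 (-1.13) and Slc7a5 (-0.70) had the largest falls of this list in the 600 challenge. Cyclosporin A raised 1 gene of the list in the 600 challenge, Slc1a4 (0.40), and 1 of the other tonicity-responsive genes in the 900 challenge, the prostaglandin synthase gene Ptgs2 (0.63). Neither call held in fits of only the compared groups, which called 0 of all features for the drug.

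Of 22 genes that encode partners and regulators of NFAT5, calcineurin subunits or other Rel family factors, Nfat5 included, 2 rose and 2 fell in the 600 challenge, and 2 rose and 5 fell in the 900 challenge. The first count is near the 14.4% of all features called, and the second stands against 17.4%. Parp1, whose poly(ADP-ribose) polymerase binds NFAT5, rose by 0.64 ± 0.05 and 0.45 ± 0.05 (adjusted p = 1.27e-06 and 3.33e-05), and the kinase gene Abl1 fell by 0.33 and 0.38. The genes of the related factors Nfatc2, Nfatc3 and Nfatc4 did not pass at either step, with differences from -0.20 to 0.28. Of 14 other tonicity-responsive genes, 11 rose and 1 fell in the 600 challenge (median 0.58, with 6.36% of all features higher and 8.07% lower) and 12 rose in the 900 challenge (median 0.90, with 6.43% of all features higher), for example the chaperone gene Hspa4l (1.37 and 1.40). Hspb1, a small heat shock protein gene, fell by 0.45 at the first step and rose by 0.41 at the second. Some genes of this list, such as Aqp2, are also among the cell type markers described below. The list was chosen with earlier results of these data known. The medians of the 7 osmolyte genes were 0.35 and 0.09 at these steps, and those of all features 0.02 and -0.01.

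**Figure D4:**
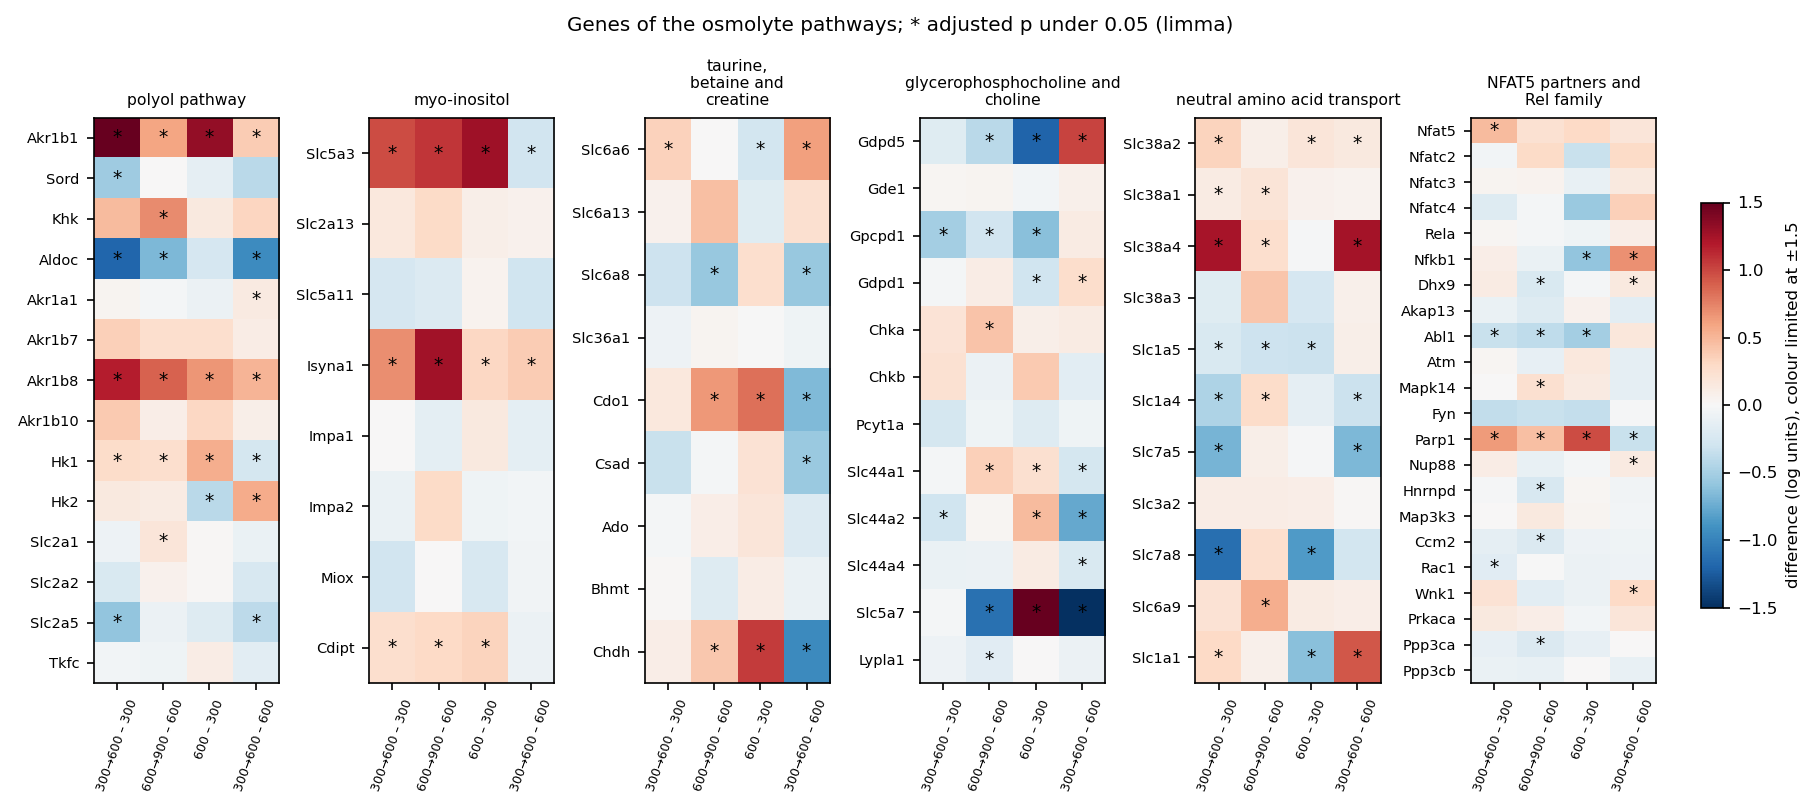
Differences in log units (colour, red higher and blue lower, limited at ±1.5) of the genes of 6 pathway lists (rows) in 4 comparisons (columns): each challenge minus its own culture, then 600 culture minus 300 culture, then 600 challenge minus 600 culture. Asterisks mark an adjusted p under 0.05. Gdpd5, Slc5a7 and Chdh show opposite colours in the last 2 columns.

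The patterns most like those of the members over the 18 arrays, by Pearson correlation among 15063 features with a gene name, are given as a description, since arrays of a group share their treatment. Nearest to Akr1b1 was Ogt, which encodes the O-GlcNAc transferase, on both features (r = 0.98 for A and 0.969 for B). Slc5a3 was nearest to Ezh1 and Ampd3 (both r = 0.994), Gdpd5 to Rab32 (0.986) and the urea cycle gene Ass1 (0.985), Slc6a6 to the kinase gene Map2k3 (0.951), and Slc38a2 to Pik3c2a (0.953). The best correlations were lower for Nfat5 (0.866, with Esrrb at 0.864) and Sord (Med30, 0.816).

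Markers of other cell types moved in the same comparisons, in which 6.36% of all features were higher and 8.07% lower at the first step, 6.43% higher and 11% lower at the second, and 8.33% higher and 8.84% lower between the cultures. Of 12 leukocyte markers 11 fell at each challenge and none rose, and their mean log level per array was 5.49 to 5.58 in the 300 culture, 3.99 to 4.14 in the 600 challenge, 4.16 to 4.28 in the 600 culture and 2.95 to 3.00 in the 900 challenge. Of 11 fibroblast and interstitial markers 8 fell at the first step and 9 at the second (mean levels 6.05 to 6.11, 5.32 to 5.38, 5.74 to 5.76 and 5.06 to 5.15 in the same order). Of 14 principal cell markers 2 rose and 4 fell at the first step, and 6 rose and 3 fell at the second. In the 600 culture 8 of them were higher and 2 lower than in the 300 culture. Their mean levels were 4.26 to 4.34, 4.32 to 4.34, 5.58 to 5.81 and 5.88 to 5.91 in the same order. Of 7 loop of Henle markers 4 rose at the first step and 3 at the second, and none fell (mean levels 2.98 to 3.16, 3.42 to 3.56, 4.03 to 4.13 and 4.60 to 4.66). Of 8 endothelial markers 1 rose and 5 fell at the first step and 2 rose and 3 fell at the second (5.03 to 5.07, 4.71 to 4.80, 5.41 to 5.49 and 5.30 to 5.39). Of 7 intercalated cell markers none passed at the first step and 1 fell at the second (2.53 to 2.61, 2.48 to 2.66, 2.07 to 2.30 and 2.03 to 2.32). No marker was at 0 on all arrays of a group. The mean levels of intercalated cell markers lay near or under the lower quartiles of the arrays (2.48 to 2.70), where signal above background is not shown. The part of these cells in the members' differences was not tested, and fewer cells of a type and less RNA per cell cannot be told apart in such cultures.

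**Figure D5:**
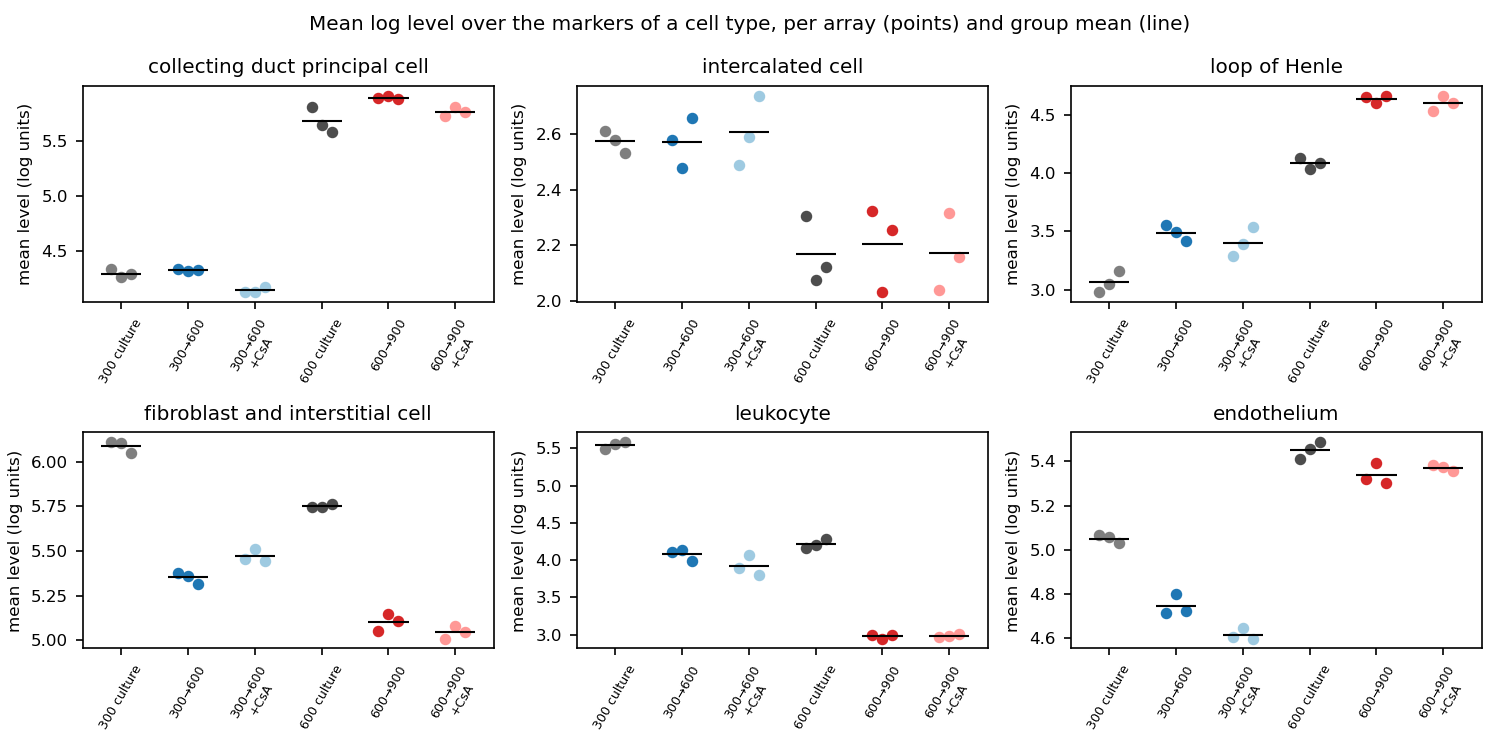
Mean log level over the markers of 6 cell types on each array (points) by group, with the mean of the 3 arrays as a line; vertical axes differ between panels. Leukocyte markers ran from 5.49 to 5.58 in the 300 culture down to 2.95 to 3.00 in the 900 challenge, and principal cell markers were higher in the 600 culture and 900 challenge groups.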

How the data were processed

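Per the labels' protocols, total RNA was extracted with a column kit, amplified, and turned into fragmented, labelled cDNA for the arrays. The authors deposited log2 or natural log values per feature, whose array medians lie close together. Base, summarisation, normalization and signal over background are not stated in the labels, and the number of arrays limits the precision.

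No filter, pseudocount or further scaling was applied. A model with 6 group means was fitted to 18 arrays with limma 3.58.1 in R 4.3.3, with Benjamini-Hochberg adjustment over 28328 features and a threshold of 0.05 (adjusted p in the text). The fit was tested on simulated data. All 7 member genes matched RefSeq by Entrez identifier. Members and lists were chosen with earlier results of these data known. Named are all members, per list at most the 3 largest rises and falls past the threshold in a comparison or genes whose pathway step is described, and the features most like each member. A gene of a list is read by its feature with the highest mean, and list genes without one were not analysed here. Alternatives were a replicate block, arrays centred on their medians, quantile normalization, dim features left out, a variance trend, fits of only the compared groups, and leaving out each array.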

Additional observations from a re-analysis of the deposited data

Results flagged for a closer look

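The rise of Akr1b1 on feature A was smaller at the step from 600 to 900 mosmol/kg (0.59) than at the step from 300 to 600 mosmol/kg (1.70), and the test of the difference of the steps passed (-1.11 ± 0.09, limma adjusted p = 4.45e-06). On feature A it passed under every alternative run, with values from -1.24 to -1.04. On feature B the difference of the steps, -1.08 ± 0.33, did not pass in the main fit (limma adjusted p = 0.0641) and passed under some alternatives. Feature A was close to the highest values of the arrays in the 900 challenge, and the part of this in the smaller second rise was not tested. Slc38a2 rose by 0.33 at the first step and had a difference of 0.09 at the second, and the test of the difference also passed (-0.24 ± 0.06, adjusted p = 0.0348), but not when any of 8 single arrays was left out. Groups of 3 arrays are too small for the test of single outlying arrays.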

How the results depend on the processing

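Of the differences of the osmolyte features under the alternatives run, none changed sign with a call, 1163 kept their side of the threshold, 67 lost a call and 18 gained one. The count of members called between the 900 and 600 challenges, 5, became 3 to 4 with an array left out. The count between the 600 challenge and the 600 culture, 6, became 4 to 5 with an array left out and 4 to 7 under the other alternatives. That of the difference of the steps, 2, became 1 with arrays centred on their medians, 4 with a variance trend, 1 in a fit of only the groups compared, and 1 to 3 with an array left out. Replicate numbers, taken from the sample titles, did not pair the arrays (same-number pairs of arrays had a median correlation of deviations of 0.00851, and 1 of 45 was over 0.1). For replicate 3 of the 900 challenge without and with the drug, the source name carries another number than the title. With the replicate block the difference of the steps was -1.08 on Akr1b1 feature B (adjusted p = 0.0239), the 900 challenge minus the 600 challenge 0.54 (0.0422), and Slc38a2 in the 600 challenge minus the 600 culture 0.14 (0.0603), and the block changed no other call of a member.

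Over all features, fits of only the compared groups gave 2479 in place of 3982 calls for the 600 challenge with cyclosporin A against the 300 culture, 2860 in place of 4934 for the 900 challenge, 3059 in place of 5040 for that challenge with the drug, and 3071 in place of 4655 between the 600 challenge and the 600 culture. For the drug itself, limma's 116 calls at 600 mosmol/kg became 0 in that fit, 178 without dim features and 268 with a variance trend, and the 143 at 900 mosmol/kg became 0, 233 and 385 (2406 and 2990 features had an unadjusted p under 0.05 in the fit of all groups). Depth of signal could not be judged without background values.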

Other observations

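Some genes of these lists differed between cells after 24 h at 600 mosmol/kg and cells cultured at that osmolality. They were picked after their values were seen. The amino acid transporter gene Slc38a4 had means of 5.85 in the 300 culture, 7.08 in the 600 challenge and 5.83 in the 600 culture (600 challenge minus 600 culture 1.25 ± 0.06, limma adjusted p = 1.18e-09). For other genes the 600 culture lay farther from the 300 culture than the 600 challenge did. The glutamate transporter gene Slc1a1 had means of 6.07, 6.37 and 5.44 in the same order, Chdh 3.98, 4.08 and 5.02, Cdo1 3.14, 3.30 and 3.96, and Slc5a7 2.23, 2.20 and 4.32.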
